A study of Mus musculus with 50 samples.

Results

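MAP kinase phosphatases are the dual-specificity phosphatases that switch off MAP kinases. Of their transcripts 9 were examined here, those of Dusp1, Dusp2, Dusp4, Dusp5, Dusp6, Dusp7, Dusp8, Dusp10 and Dusp16. They were found by their symbols among the 53700 genes of each count table. Poly-A RNA was sequenced from microglia, the resident macrophages of the brain, sorted as CD45int CD11b+ cells from the hippocampus of 50 male C57BL/6J mice, with 1 library per mouse. The mice were raised under control conditions (CTR) or under early-life stress (ELS), in which bedding and nest material were scarce in the first postnatal week, and no mouse carried a transgene. At postnatal day (P) 9 the groups were P9-CTR (n = 12) and P9-ELS (n = 13), neither of which was injected. At P200 the mice had been injected with PBS or with lipopolysaccharide (LPS), a bacterial cell wall component, a few hours before sacrifice, and P200-CTR-PBS and P200-CTR-LPS had 7 mice each, P200-ELS-PBS had 6 and P200-ELS-LPS had 5.

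A MAP kinase is activated when a kinase above it phosphorylates a threonine and a tyrosine in its activation loop, and a MAP kinase phosphatase removes both phosphates. The family is commonly divided by location and substrate into inducible nuclear enzymes (Dusp1, Dusp2, Dusp4, Dusp5), cytoplasmic enzymes directed at ERK (Dusp6, Dusp7) and enzymes directed at the stress-activated kinases JNK and p38 (Dusp8, Dusp10, Dusp16). In macrophages, Dusp1 is known as an early response gene that limits p38 and JNK activity after a toll-like receptor is engaged, and LPS is the ligand of one such receptor.

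To show what lies upstream of members that moved together after LPS, 150 bases of the promoter are printed below for the 5 members that rose and the 2 that fell, read from GRCm39 on the strand of the gene and ending 15 bases before the annotated start of the GENCODE canonical transcript. Capitals mark letters of the cyclic AMP response element (TGACGTCA), of its core (TGACG, which the full element contains) and of the CArG box, the binding motif of serum response factor.
Dusp1: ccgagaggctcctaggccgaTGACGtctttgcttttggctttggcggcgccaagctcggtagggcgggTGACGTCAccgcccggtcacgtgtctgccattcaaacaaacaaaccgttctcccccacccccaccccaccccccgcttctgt
Dusp8: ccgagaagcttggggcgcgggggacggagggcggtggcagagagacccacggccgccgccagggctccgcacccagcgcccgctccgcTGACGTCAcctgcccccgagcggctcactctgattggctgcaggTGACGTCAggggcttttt
Dusp5: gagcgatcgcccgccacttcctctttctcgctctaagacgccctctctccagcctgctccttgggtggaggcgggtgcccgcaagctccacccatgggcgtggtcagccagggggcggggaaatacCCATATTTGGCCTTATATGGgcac
Dusp2: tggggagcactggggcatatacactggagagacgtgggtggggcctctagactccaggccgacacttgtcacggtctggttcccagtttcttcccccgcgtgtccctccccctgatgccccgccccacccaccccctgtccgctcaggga
Dusp16: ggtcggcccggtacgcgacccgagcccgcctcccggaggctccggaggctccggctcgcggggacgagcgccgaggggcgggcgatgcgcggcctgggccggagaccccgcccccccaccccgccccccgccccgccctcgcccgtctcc
Dusp6: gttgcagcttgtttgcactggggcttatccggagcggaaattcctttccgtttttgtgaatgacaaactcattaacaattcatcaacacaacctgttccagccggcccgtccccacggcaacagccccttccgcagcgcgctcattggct
Dusp7: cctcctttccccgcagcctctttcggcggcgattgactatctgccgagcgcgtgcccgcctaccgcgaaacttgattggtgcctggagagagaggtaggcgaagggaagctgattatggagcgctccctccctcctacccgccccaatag
The stretches are chr17:26727508-26727657 (Dusp1, minus strand), chr7:141649067-141649216 (Dusp8, minus), chr19:53517368-53517517 (Dusp5, plus), chr2:127177793-127177942 (Dusp2, plus), chr6:134769713-134769862 (Dusp16, minus), chr10:99098904-99099053 (Dusp6, plus) and chr9:106244979-106245128 (Dusp7, plus). In GENCODE, exons of long non-coding RNAs read from the opposite strand reach into the windows of Dusp1, Dusp2, Dusp5, Dusp6 and Dusp8. An exon of Gm56968, a long non-coding RNA on the same strand as Dusp6, also covers the whole printed stretch of Dusp6.

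All 9 members were searched over the full 250 bases before the start, on both strands, beside the same window of 16587 of the 16696 tested genes. The full cyclic AMP response element was found in Dusp1, whose copy starts 96 bases before the start, and in Dusp8, whose copies start 76 and 32 bases before it, against 1.82% of all windows. Its core was found in 4 members (Dusp1, Dusp4, Dusp5 and Dusp8), against 21.2% of all windows. Dusp5 held 2 CArG boxes, 38 and 28 bases before its start, and no other member held one, against 1.21% of all windows. The E-box CACGTG was found in Dusp1 and Dusp7 (7.13% of all windows), and the GC box GGGCGG in 8 members, all but Dusp6 (42.1% of all windows). No member held the kappaB motif (7.62% of all windows), the AP-1 motif TGANTCA (4.93%) or the TATA box TATAAA (8.84%) in these bases. The members' windows contained 56.0% to 82.4% G and C, against a median of 54.8% over all windows. These matches describe letters and no binding was measured.

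The count per mouse totalled 5152838 to 42231258 over all genes, and 12482 to 21100 genes had a count above 0. Fewer than 16000 genes were detected in 3 libraries, those of mice P9_19.2_ELS, P9_19.3_ELS and P200_1.1_CTR_PBS, and results that rest on them are also given without them. The microglia marker P2ry12 was at a group mean of 8420 to 14399 CPM (counts scaled to library size by the TMM method), and 10 monocyte and neutrophil markers summed to at most 38.8 CPM, with Ly6g at 0 in every mouse. In bulk RNA, fewer cells of a type and less RNA per cell cannot be told apart.

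Dusp6 was by far the most abundant of the 9 transcripts in unstimulated adult microglia. Levels between genes were compared per length, as CPM per kilobase of annotated exon (RPKM). In P200-CTR-PBS mice Dusp6 was at 333 ± 19.9 RPKM (SD, n = 7) and Dusp7, the other cytoplasmic ERK phosphatase of the 9, at 13.6 ± 4.33 RPKM. Dusp16, which is directed mainly at JNK, followed with 2.81 ± 1.09 RPKM, Dusp10 (JNK and p38) with 1.37 ± 1.48 and Dusp1 with 1.01 ± 1.06 RPKM. The order of these last 3 lies within their spread between mice, whereas the lowest Dusp6 value was above every Dusp7 value and the lowest Dusp7 value (5.65 RPKM) above the highest Dusp16 value (3.97 RPKM). Dusp8 was lower, at 0.155 RPKM, with 72 counts in the highest mouse. Dusp5 (0.0685 RPKM), Dusp2 (0.0538 RPKM) and Dusp4 (0.0132 RPKM) were near the limit of detection.

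The composition of the family differed between PBS and LPS mice. Dusp6 and Dusp7 together held 97.8% to 98.9% of the summed RPKM of the 9 transcripts in P200-CTR-PBS mice and 97.3% to 98.2% in P200-ELS-PBS mice. After LPS they held 47.3% to 75.5% in CTR and 19.5% to 67.8% in ELS mice. Dusp1 alone held 0.0248% to 0.940% in P200-CTR-PBS mice and 18.7% to 45.3% in P200-CTR-LPS mice, and in ELS mice 0.412% to 1.53% after PBS and 27.5% to 74.9% after LPS. The PBS and LPS ranges of these shares did not overlap. The values of 19.5% and 74.9% were those of mouse P200_20.1_ELS_LPS. Dusp1 was at 714 RPKM in this mouse, against 105 to 267 RPKM in the other ELS-LPS mice. The order after LPS in CTR mice was Dusp6 (234 ± 26.8 RPKM), Dusp1 (148 ± 57.2), Dusp16 (15.6 ± 4.01), Dusp2 (3.44 ± 2.08), Dusp7 (3.33 ± 0.975), Dusp8 (2.90 ± 0.989), Dusp5 (2.30 ± 1.14), Dusp10 (1.1 ± 0.358) and Dusp4 (0.0917 ± 0.0727). The highest Dusp1 value exceeded the lowest Dusp6 value, and Dusp2, Dusp7, Dusp8 and Dusp5 lay within each other's spread.

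**Figure D1:**
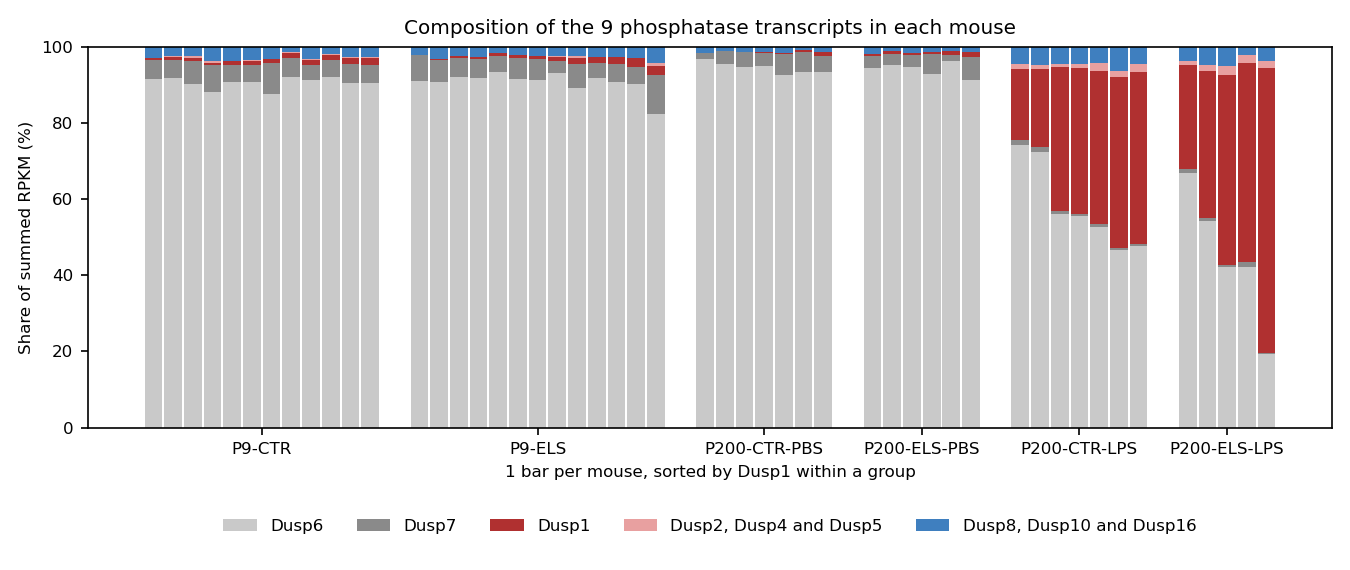
Share of each phosphatase transcript in the summed RPKM of the 9 transcripts (vertical axis, percent), 1 bar per mouse, with mice sorted by Dusp1 within each of the 6 groups. Dusp6 fills most of every bar without LPS, and Dusp1 fills 18.7% to 74.9% of the bars of LPS mice. The value of 74.9% is that of mouse P200_20.1_ELS_LPS.

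LPS was compared with PBS at P200 to learn how the family responds to an immune challenge, in CTR and in ELS mice separately. In both conditions the same 5 of the 8 tested members rose (Dusp1, Dusp2, Dusp5, Dusp8, Dusp16), the same 2 fell (Dusp6, Dusp7) and Dusp10 did not pass the test (edgeR's quasi-likelihood test, adjusted p under 0.05 over 16696 genes). Among all tested genes 8.73% rose and 6.2% fell in CTR mice, and 7.4% rose and 4.94% fell in ELS mice. The median log2 fold change of the 8 members was 3.34 in CTR and 2.88 in ELS mice, against 0.00 and -0.04 over all tested genes. Dusp2 reached 1 CPM in LPS mice only, and Dusp5 in LPS mice and 1 PBS mouse, so that both entered the test through the group in which they were high and these counts and medians lean on that. For the 7 members that passed, PBS and LPS mice did not overlap in CPM in either condition. The share of all tested genes without overlap was not computed. Since these 7 were picked by the same values, the lack of overlap only describes them.

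**Figure D2:**
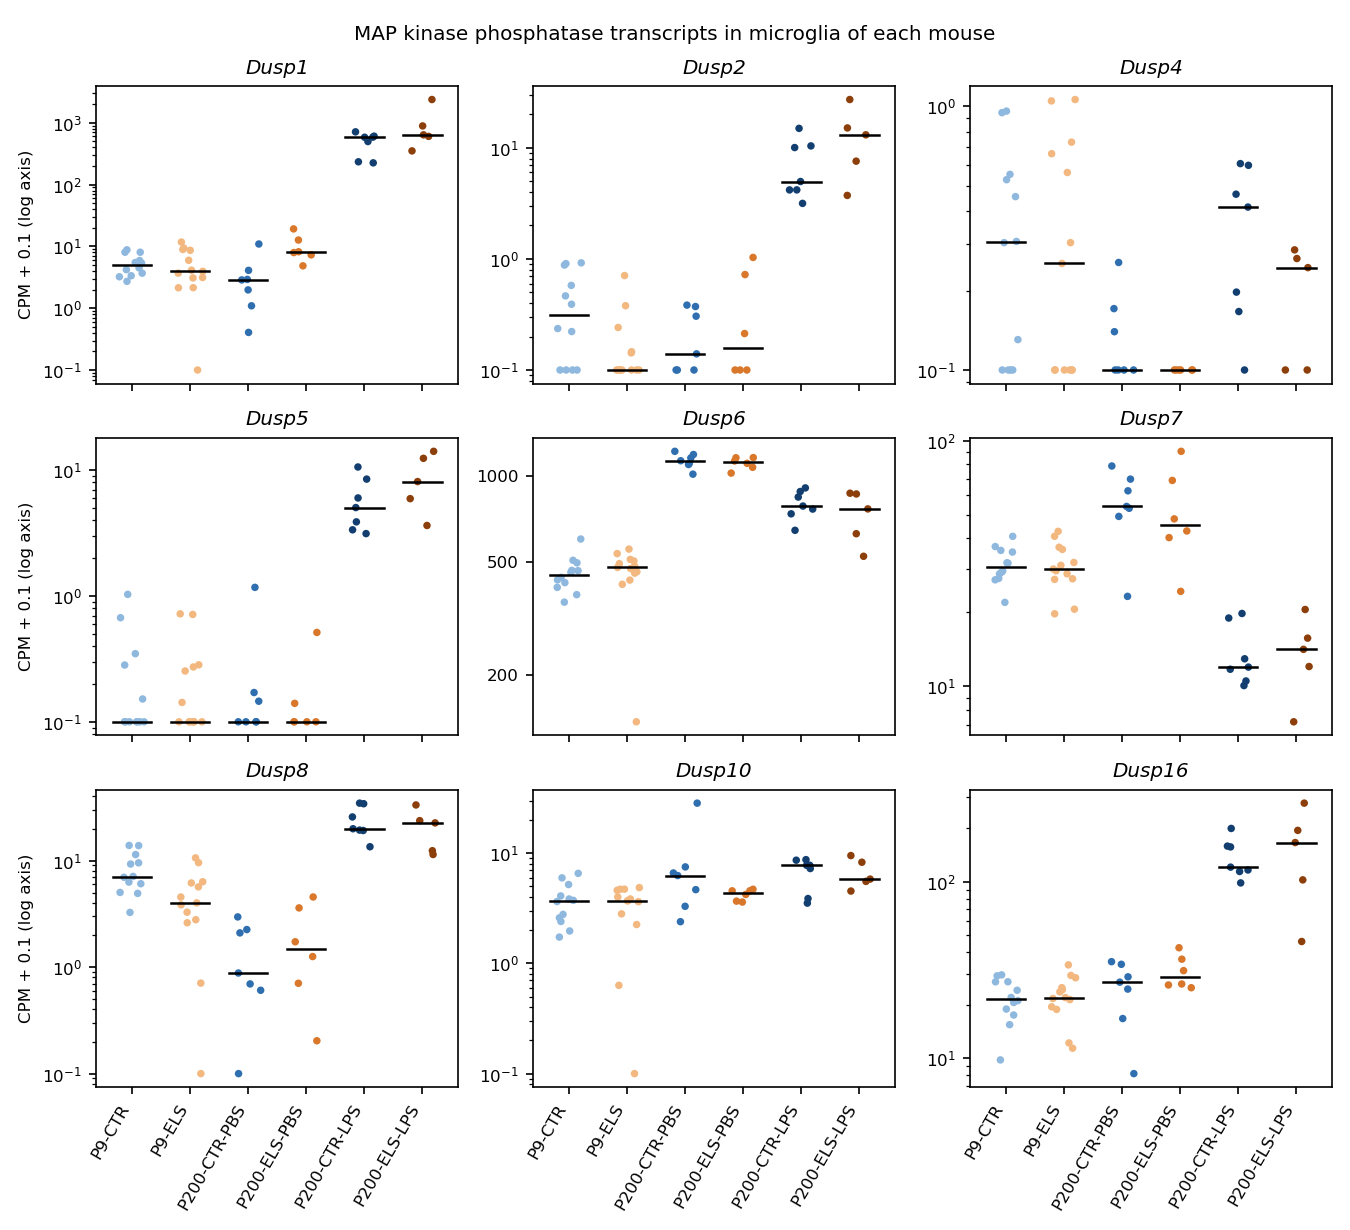
Level of each of the 9 transcripts in every mouse (CPM with 0.1 added, log axis) in the 6 groups, with the group median as a line, so that a point at 0.1 is a mouse without a read. Dusp1, Dusp2, Dusp5, Dusp8 and Dusp16 are higher in all LPS mice than in any PBS mouse of the same condition, and Dusp6 and Dusp7 lower.

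Among the inducible nuclear enzymes, Dusp1 (MKP-1) dephosphorylates p38 and JNK and is itself an immediate early gene. Of these enzymes it showed the largest fold change in CTR mice in the main fit. That of Dusp5 was larger in ELS mice (6.87 against 6.61 on the log2 scale), and in CTR mice without mouse P200_5.1_CTR_PBS. The level of Dusp1 was 0.305 CPM at the lowest, 2.77 at the median and 10.8 CPM at the highest in P200-CTR-PBS mice, and 224, 583 and 712 CPM in P200-CTR-LPS mice. Every LPS mouse was thus above every PBS mouse. It rose by 7.16 ± 0.59 on the log2 scale (SE, adjusted p = 4.44e-14 by edgeR), a 143-fold difference, which ranked 38th among the increases of all tested genes. Without mouse P200_5.2_CTR_PBS, which had the highest PBS value, it was 7.85.

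In ELS mice Dusp1 ranged from 4.74 CPM through a median of 7.96 to 19.06 CPM after PBS. After LPS it was at 602, 350, 637, 888 and 2375 CPM in mice P200_2.2_ELS_LPS, P200_4.2_ELS_LPS, P200_11.2_ELS_LPS, P200_17.3_ELS_LPS and P200_20.1_ELS_LPS, the order kept below. Mouse P200_20.1_ELS_LPS stood above the other 4. The rise was 6.61 ± 0.62 on the log2 scale (adjusted p = 4.09e-12, edgeR), and 5.97 without mouse P200_20.1_ELS_LPS.

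Dusp2 (PAC-1), a nuclear phosphatase of ERK and p38 known from activated immune cells, was at 0 counts in 3 of 7 CTR-PBS and 3 of 6 ELS-PBS mice and reached at most 0.284 and 0.931 CPM in the others. After LPS it was at 3.06 CPM at the lowest, 4.87 at the median and 14.9 CPM at the highest in CTR mice, and at 13.0, 3.63, 7.48, 15.0 and 27.1 CPM in the 5 ELS mice. All LPS mice were above all PBS mice, though at a low level. Dusp2 rose by 5.91 ± 1.06 (log2, adjusted p = 3.33e-05) in CTR and by 5.59 ± 1.12 (adjusted p = 0.000231, edgeR) in ELS mice, and by 6.48 in ELS mice without mouse P200_11.1_ELS_PBS, which had the highest PBS value.

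Dusp5, a nuclear phosphatase specific for ERK, was at 0 counts in 4 of 7 CTR-PBS and 4 of 6 ELS-PBS mice. After LPS it was at 3.04 CPM at the lowest, 4.95 at the median and 10.5 CPM at the highest in CTR mice, and at 3.54, 5.85, 8.04, 14.1 and 12.4 CPM in the 5 ELS mice. Dusp5 rose by 4.96 ± 1.16 (log2, adjusted p = 0.00151) in CTR and by 6.87 ± 1.41 (adjusted p = 0.000333, edgeR) in ELS mice. Single PBS mice set the size of these folds. Mouse P200_5.1_CTR_PBS had 27 counts (1.07 CPM), without which the CTR value was 7.98, and mouse P200_11.1_ELS_PBS had 8 counts (0.414 CPM), without which the ELS value was 9.32.

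Dusp4 (MKP-2), a nuclear relative of Dusp1, had at most 34 counts in any mouse and failed the filter of 1 CPM in more than 2 mice, so that it was not tested. In ELS-PBS mice it was at 0 counts in 6 of 6, which allows up to 0.164 CPM (3 counts in the smallest library of the group, counting error only). After LPS it was above 0 in 6 of 7 CTR mice, with at most 19 counts, and in 3 of 5 ELS mice, with at most 3 counts. When all genes with a count were tested instead, its LPS change did not pass in CTR (adjusted p = 0.233) or in ELS mice (adjusted p = 0.0959, edgeR), with counts too low for a fold change.

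The cytoplasmic ERK phosphatases moved the other way. Dusp7 (MKP-X) was at 23.2 CPM at the lowest, 53.9 at the median and 78.8 CPM at the highest in CTR-PBS mice and at 9.98, 11.9 and 19.7 CPM in CTR-LPS mice. In ELS mice it ranged from 24.3 through 45.4 to 90.4 CPM after PBS and was at 12.0, 15.6, 20.5, 14.1 and 7.08 CPM after LPS, so that no LPS mouse reached the lowest PBS mouse in either condition. It fell by 2.03 ± 0.23 on the log2 scale in CTR (adjusted p = 1.41e-09) and by 1.92 ± 0.27 in ELS mice (adjusted p = 2.61e-07, edgeR).

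Dusp6 (MKP-3), whose transcription follows ERK activity in many cell types, showed the smallest change of the 7 members that passed. It was at 1014 CPM at the lowest, 1131 at the median and 1220 CPM at the highest in CTR-PBS mice and at 644, 784 and 908 CPM in CTR-LPS mice. In ELS mice it ranged from 1023 through 1118 to 1160 CPM after PBS and was at 864, 870, 522, 766 and 627 CPM after LPS. It fell by 0.51 ± 0.15 on the log2 scale in CTR (adjusted p = 0.0127) and by 0.60 ± 0.17 in ELS mice (adjusted p = 0.011, edgeR), about 1.42-fold and 1.52-fold. Without mouse P200_11.2_ELS_LPS, which had the lowest value, the ELS difference was -0.50 and no longer passed (adjusted p = 0.0519, edgeR).

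Of the phosphatases directed at JNK and p38, Dusp16 (MKP-7) and Dusp8 rose and Dusp10 did not pass. Dusp16 was at 8.09 CPM at the lowest, 26.9 at the median and 35.1 CPM at the highest in CTR-PBS mice and at 98.1, 121 and 200 CPM in CTR-LPS mice. In ELS mice it ranged from 25.0 through 28.7 to 42.1 CPM after PBS and was at 166, 102, 45.7, 195 and 278 CPM after LPS, with mouse P200_11.2_ELS_LPS close to the PBS mice. Dusp16 rose by 2.47 ± 0.28 (log2, adjusted p = 1.01e-09) in CTR and by 2.34 ± 0.31 (adjusted p = 6.68e-08, edgeR) in ELS mice. Of the members that rose, only Dusp1 was higher in CPM after LPS.

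Dusp8 was at 0 CPM at the lowest, 0.780 at the median and 2.86 CPM at the highest in CTR-PBS mice and at 13.4, 19.8 and 34.5 CPM in CTR-LPS mice. In ELS mice it ranged from 0.103 through 1.39 to 4.46 CPM after PBS and was at 22.5, 12.3, 11.3, 33.2 and 23.6 CPM after LPS. The groups were apart in both conditions, with log2 fold changes of 4.21 ± 0.65 in CTR (adjusted p = 2.06e-06) and 3.43 ± 0.69 in ELS mice (adjusted p = 0.000264, edgeR).

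Dusp10 (MKP-5) was at 2.29 CPM at the lowest, 6.16 at the median and 28.3 CPM at the highest in CTR-PBS mice and at 3.42, 7.65 and 8.62 CPM in CTR-LPS mice. The value of 28.3 CPM was that of mouse P200_1.1_CTR_PBS, the library with 12854 detected genes, and the other 6 CTR-PBS mice overlapped with the LPS mice. Its difference was -0.32 ± 0.44 on the log2 scale in CTR mice (adjusted p = 0.717, 95% interval -1.20 to 0.56) and 0.69 ± 0.50 in ELS mice (adjusted p = 0.425, -0.31 to 1.68, edgeR). Without the 3 libraries with few detected genes the CTR value was 0.41 (adjusted p = 0.435, edgeR).

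**Figure D3:**
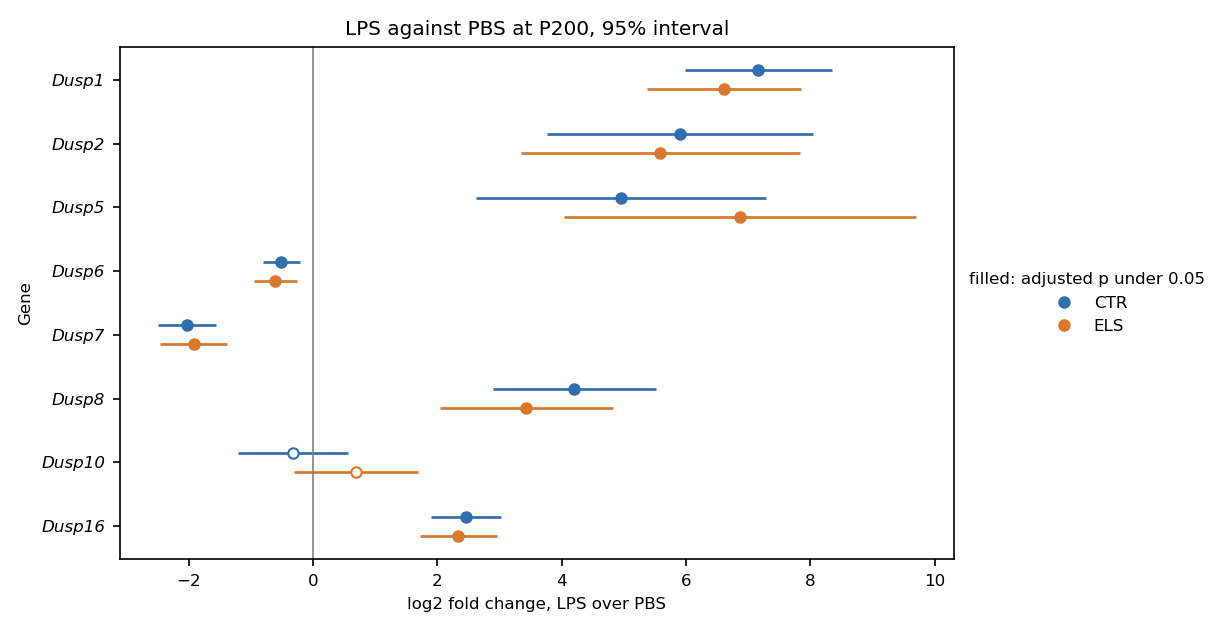
Log2 fold change of LPS over PBS (horizontal axis) for the 8 tested members in CTR and ELS mice at P200, with 95% intervals as lines and filled points for an adjusted p under 0.05. The members that rose lie between 2.34 and 7.16, Dusp7 and Dusp6 lie below 0, and the intervals of Dusp10 include 0.

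Most tested transcripts of a list that responds to cell isolation rose with LPS as well. The 12 genes of that list, which are immediate early and heat shock genes, summed to 837 to 1108 CPM in the 13 PBS mice. They summed to 8019 to 14492 CPM in the 12 LPS mice, with Fosb at 0 in every LPS mouse. Of its 10 tested genes, 8 rose in CTR and 7 in ELS mice. Atf3 (-0.74 ± 0.28 in CTR, 0.09 ± 0.31 in ELS mice) and Hspa1a (0.38 ± 0.84 and -0.34 ± 0.95) passed in neither condition. Egr1 of this list is also counted below among transcripts that follow ERK activity. Of 9 transcripts known to be induced by glucocorticoids, 8 rose and 1 fell (Sgk1, -2.05 ± 0.19) in CTR mice, and 5 rose and 1 fell in ELS mice. The part of either list in the rise of Dusp1 was not tested. Of the microglia markers, P2ry12 and Sall1 fell in both conditions. None of the 4 tested monocyte or neutrophil markers passed in either condition, and the 10 listed summed to 1.02 to 11.13 CPM after PBS and 1.64 to 15.21 CPM after LPS. The 6 astrocyte markers summed to 299 to 503 CPM after PBS and to 418 to 613 CPM after LPS. Nearly all of this was Slc1a3, with means of 356 and 550 CPM in CTR mice, while Gfap, Aqp4, Slc1a2, Aldh1l1 and Gja1 had means of at most 2.03 CPM in each adult group, and their part was not tested. GENCODE also lists exons of genes on the opposite strand that overlap the exons of Dusp1 (Ergic1), Dusp5, Dusp6, Dusp8, Dusp10 and Dusp16, and since the strand setting of the counting is not given in the sources used here, reads of these pairs cannot be told apart.

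Of 10 MAP kinase genes, 2 rose in CTR mice, where 8.73% of all tested genes rose. They were Mapk8 (JNK1, log2 fold change 0.85 ± 0.29, adjusted p = 0.039) and Mapk11 (p38 beta, 5.77 ± 1.5, adjusted p = 0.00472, edgeR), the latter from a mean of 0.00556 to one of 0.658 CPM with overlapping groups, and none passed in ELS mice. Of 7 MAP kinase kinases, Map2k3, which activates p38, rose by 2.02 ± 0.33 in CTR (adjusted p = 5.48e-06) and by 2.29 ± 0.37 in ELS mice (adjusted p = 5.75e-06, edgeR), from a mean of 34.0 to 138 CPM and from 30.9 to 151 CPM. Map2k7 also rose, and Map2k1 and Map2k6 fell, in CTR mice.

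Of 15 MAP3 kinases and TAB adaptors, Map3k8 (Tpl2), the kinase that links toll-like receptors to ERK, rose from a mean of 15.9 to 372 CPM in CTR mice (log2 fold change 4.55 ± 0.24, adjusted p = 2.14e-21) and from 16.0 to 360 CPM in ELS mice (4.49 ± 0.26, adjusted p = 7.98e-20, edgeR). Braf passed in CTR mice (0.90 ± 0.28) and not in ELS mice. Of 7 tested kinases downstream of MAP kinases, Mapkapk2, a p38 target that stabilizes cytokine transcripts, rose in ELS mice (1.56 ± 0.28, adjusted p = 3.88e-05, edgeR) and none passed in CTR mice. None of the 6 tested Sprouty and Spred inhibitors, which restrain ERK signalling, passed in either condition.

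Outside the 9 members, 13 genes of dual-specificity phosphatases and their relatives were tested. Of these, 2 rose and 1 fell in CTR mice, and 1 rose and 1 fell in ELS mice. They were Dusp3 (0.67 ± 0.20, adjusted p = 0.0123) and Dusp11 (0.41 ± 0.14, adjusted p = 0.0378), which rose, and Dusp27 (-0.94 ± 0.30, adjusted p = 0.0231), which fell, in CTR mice, and Dusp11 (0.58 ± 0.16) and Dusp27 (-1.23 ± 0.34) in ELS mice by edgeR. Dusp9, a further cytoplasmic phosphatase of ERK that was not among the members examined, had a group median of 0 to 0.353 CPM. Of 10 transcripts known to follow ERK activity, 6 rose in each condition and none fell. Among all tested genes 8.73% rose in CTR and 7.4% in ELS mice. In CTR mice the 6 were Ier3 (5.48 ± 0.42), Egr1 (5.51 ± 0.46), Egr2 (3.86 ± 0.54), Phlda1 (4.90 ± 0.80), Myc (1.56 ± 0.17) and Fosl1. Fosl1 was at 0 CPM in every CTR-PBS mouse and at most 0.192 CPM in ELS-PBS mice. It entered the test through LPS mice only, in which it was high, and the count leans on that.

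The response to LPS was then compared between ELS and CTR mice by the interaction term. No member passed, and 0% of all tested genes passed (edgeR). An unadjusted p under 0.05 was found for 980 genes and for 0 members. The largest estimate, ELS minus CTR on the log2 scale, was that of Dusp5 (1.91, 95% interval -1.31 to 5.14), which was -1.11 without mouse P200_5.1_CTR_PBS and 4.36 without mouse P200_11.1_ELS_PBS. For Dusp1 it was -0.55 (-1.93 to 0.83), for Dusp2 -0.32 (-2.82 to 2.19), for Dusp8 -0.78 (-2.54 to 0.99) and for Dusp10 1.01 (-0.32 to 2.34). The Dusp1 value was -1.23 without mouse P200_5.2_CTR_PBS, and that of Dusp10 was 0.28 without mouse P200_1.1_CTR_PBS. The tightest intervals were those of Dusp6 (-0.54 to 0.35), Dusp7 (-0.57 to 0.80) and Dusp16 (-0.94 to 0.67).

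Direct comparisons of ELS with CTR mice asked whether early-life stress changes the level of the phosphatases at P9, at P200 and after LPS. None of the 8 tested members passed in any of the 3 comparisons, in which 0%, 0.168% and 0% of all tested genes passed (edgeR). An unadjusted p under 0.05 was found for 914, 1622 and 798 genes, among them 1, 2 and 1 members. The median log2 fold change of the members was -0.06 at P9, 0.15 after PBS and 0.11 after LPS, against 0.00, 0.01 and -0.01 over all tested genes.

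Dusp1 had the smallest unadjusted p of the 8 members in ELS-PBS against CTR-PBS mice. The 6 ELS-PBS mice were at 4.74 to 19.06 CPM and the 7 CTR-PBS mice at 0.305 to 10.8 CPM, so that the groups overlapped through mouse P200_5.2_CTR_PBS (10.8 CPM), whereas the next CTR-PBS mouse was at 3.99 CPM. The log2 fold change was 1.53 ± 0.49 (95% interval 0.55 to 2.52, adjusted p = 0.172, edgeR), 2.21 without that mouse (adjusted p = 0.0564) and 1.32 without the 3 libraries with few detected genes (adjusted p = 0.208). After LPS it was 0.98 ± 0.48 (adjusted p = 1.00), and 0.33 without mouse P200_20.1_ELS_LPS. At P9 it was -0.01 ± 0.35 (-0.72 to 0.70), with medians of 4.82 CPM in CTR and 3.85 CPM in ELS pups.

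A pair of lists can be set beside these Dusp1 values. The isolation-response genes summed to 916 to 1108 CPM in ELS-PBS and to 837 to 1100 CPM in CTR-PBS mice, and none of them passed. Of the 9 glucocorticoid-induced transcripts, and Dusp1 is itself known as one, Ddit4 passed (log2 fold change 3.39 ± 0.58, adjusted p = 0.00685, edgeR), with 5.71 to 388 CPM in ELS-PBS and 5.56 to 18.0 CPM in CTR-PBS mice, and the list summed to 996 to 2560 CPM and 954 to 1284 CPM. The part of either list in the Dusp1 values was not tested. Map2k2, which activates ERK, was the only gene of the kinase lists to pass in this comparison (1.17 ± 0.27, adjusted p = 0.0466, edgeR).

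The other members are described by their intervals. Dusp10 did not pass after PBS (-1.02, 95% interval -1.95 to -0.09, adjusted p = 0.436, edgeR), with 3.50 to 4.60 CPM against 2.29 to 28.3 CPM in CTR-PBS mice, and the difference was -0.29 without mouse P200_1.1_CTR_PBS. Dusp2 differed by -1.79 (-3.32 to -0.27) at P9, where 8 of 13 ELS and 4 of 12 CTR pups had 0 counts and no pup exceeded 22 counts, by 1.17 (-0.88 to 3.23) after PBS and by 0.85 (-0.94 to 2.65) after LPS. Without single mice the Dusp2 values were -2.67 at P9 (without P9_19.2_ELS) and 0.28 after PBS (without P200_11.1_ELS_PBS). Dusp5 differed by -1.30 (-3.77 to 1.18) after PBS, by -3.74 without mouse P200_11.1_ELS_PBS, and by 0.62 (-1.47 to 2.71) after LPS. Dusp8 differed by -0.82 (-1.69 to 0.04) at P9, with medians of 3.91 CPM in ELS and 6.94 CPM in CTR pups, by 0.57 (-0.67 to 1.82) after PBS and by -0.20 (-1.45 to 1.05) after LPS. Dusp6, the member with the most reads, differed by 0.01 (-0.21 to 0.23) at P9, by -0.03 (-0.34 to 0.28) after PBS and by -0.12 (-0.45 to 0.20) after LPS, and Dusp7 by -0.02 (-0.36 to 0.32), -0.09 (-0.56 to 0.38) and 0.02 (-0.48 to 0.52). Dusp16 differed by 0.04 (-0.37 to 0.44), 0.32 (-0.23 to 0.88) and 0.19 (-0.39 to 0.77).

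**Figure D4:**
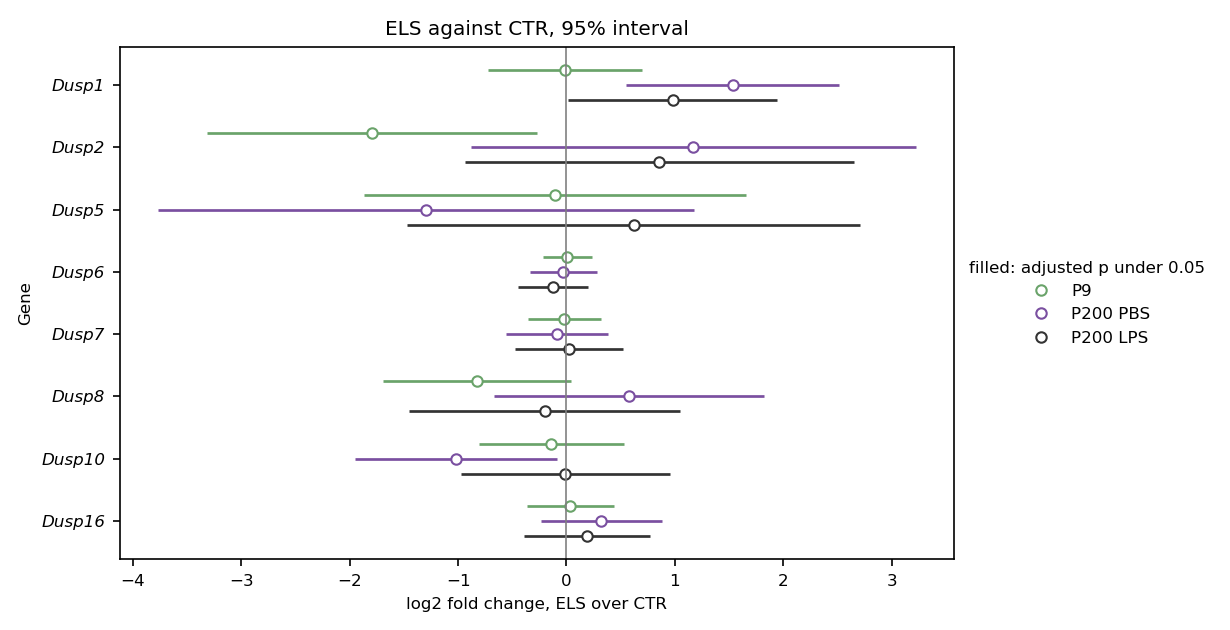
Log2 fold change of ELS over CTR (horizontal axis) for the 8 tested members at P9, at P200 after PBS and at P200 after LPS, with 95% intervals as lines and open points because no adjusted p was under 0.05. Dusp6 lies between -0.12 and 0.01 in the 3 comparisons, and Dusp1 is at 1.53 after PBS and 0.98 after LPS.

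Age was compared between P9 and PBS-injected P200 mice, separately in CTR and ELS mice, to follow the family through microglial maturation. In CTR mice 3 members rose (Dusp6, Dusp7, Dusp10) and Dusp8 fell, and in ELS mice Dusp6 and Dusp7 rose and none fell. Among all tested genes 17.44% rose and 26.62% fell in CTR mice, and 17.15% rose and 25.05% fell in ELS mice. The median log2 fold change of the members was 0.19 in CTR and 0.62 in ELS mice, against -0.09 and -0.01 over all tested genes.

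Dusp6 showed the clearest change with age. It was at 360 CPM at the lowest, 449 at the median and 600 CPM at the highest in P9-CTR pups and at 1014, 1131 and 1220 CPM in P200-CTR-PBS mice. The ages did not overlap in either condition, and Dusp6 rose by 1.32 ± 0.13 (log2, adjusted p = 3.34e-12) in CTR and by 1.28 ± 0.13 (adjusted p = 1.55e-11, edgeR) in ELS mice. P9-ELS pups were at 137 to 553 CPM with a median of 477 CPM, and the value of 137 CPM was that of mouse P9_19.2_ELS.

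Dusp7 rose as well, from medians of 30.5 and 29.9 CPM in P9-CTR and P9-ELS pups to 53.9 and 45.4 CPM in P200-CTR-PBS and P200-ELS-PBS mice, with overlap between ages in both conditions. The rise was 0.83 ± 0.20 (log2, adjusted p = 0.000474) for CTR and 0.76 ± 0.20 (adjusted p = 0.00177, edgeR) for ELS mice.

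Dusp8 fell in CTR mice from 3.16 CPM at the lowest, 6.94 at the median and 13.8 CPM at the highest at P9 to 0, 0.780 and 2.86 CPM at P200 (log2 fold change -2.65 ± 0.58, adjusted p = 0.000215, edgeR). In ELS mice the medians were 3.91 CPM at P9 and 1.39 CPM at P200 and the change was -1.25 ± 0.57 (adjusted p = 0.0728), and -1.41 without the 3 libraries with few detected genes (adjusted p = 0.0194, edgeR). It also passed when any of mice P9_19.2_ELS, P9_55.3_ELS, P200_17.1_ELS_PBS or P200_17.2_ELS_PBS was left out (-1.35 to -1.67). The 8 neuronal markers, which could also carry Dusp8 transcripts, summed to 66.3 to 185 CPM in P9-CTR and 32.6 to 138 CPM in P9-ELS pups and to 2.54 to 11.9 CPM in PBS-injected adults, and their part in the change was not tested.

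Dusp10 passed in CTR mice (1.21 ± 0.38, adjusted p = 0.00828) with medians of 3.58 CPM at P9 and 6.16 CPM at P200, but this rested on mouse P200_1.1_CTR_PBS, without which the log2 fold change was 0.48 (adjusted p = 0.288, edgeR). In ELS mice it was 0.33 ± 0.40 (adjusted p = 0.54). Dusp1 did not pass with age in CTR (-0.60 ± 0.43, adjusted p = 0.270) or in ELS mice (0.94 ± 0.41, adjusted p = 0.0624, edgeR), but it passed in CTR without mouse P200_5.2_CTR_PBS (-1.28, adjusted p = 0.0182) and in ELS mice without any 1 of P9_9.1_ELS, P9_9.3_ELS, P9_53.3_ELS, P9_53.4_ELS or P200_17.2_ELS_PBS (1.02 to 1.1). Dusp2 did not pass in CTR (-1.41 ± 0.91, adjusted p = 0.212) or in ELS mice (1.56 ± 0.89, adjusted p = 0.161). The ELS value was 2.43 without mouse P9_19.2_ELS (adjusted p = 0.0253) and 0.67 without mouse P200_11.1_ELS_PBS (adjusted p = 0.630, edgeR). Dusp16 did not pass in CTR (0.19 ± 0.24, adjusted p = 0.550) or in ELS mice (0.47 ± 0.24, adjusted p = 0.111). Dusp5 did not pass in CTR (0.18 ± 0.96, adjusted p = 0.899) or in ELS mice (-1.01 ± 1.13, adjusted p = 0.504, edgeR), and its values rested on single mice, with -2.84 without P200_5.1_CTR_PBS and -3.46 without P200_11.1_ELS_PBS.

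**Figure D5:**
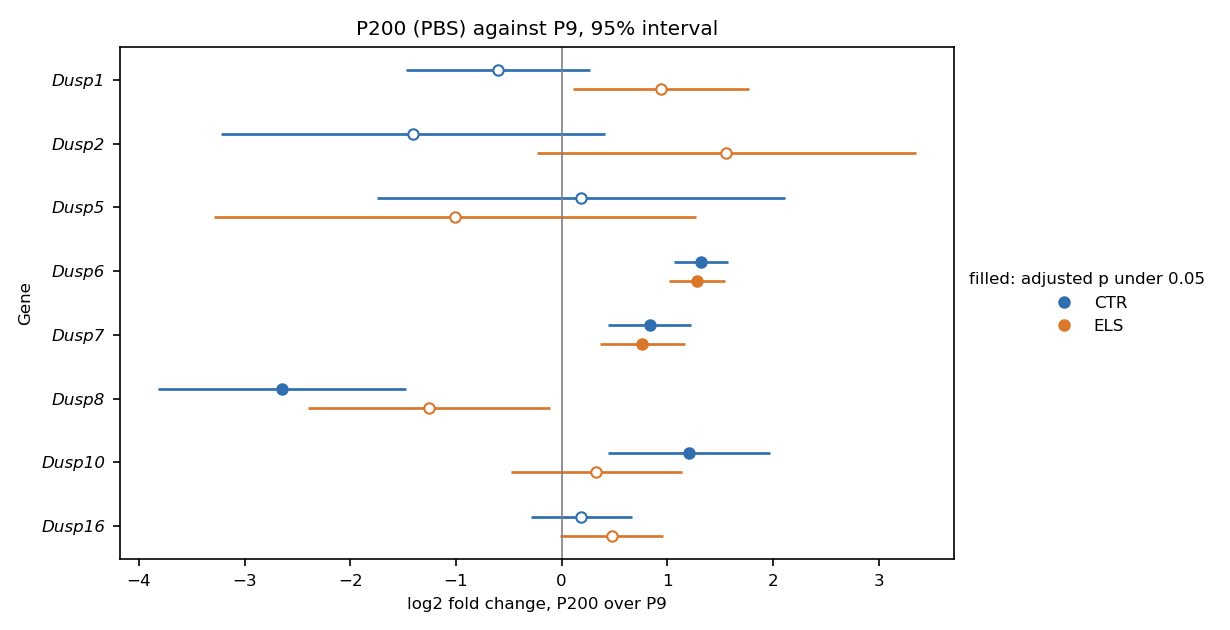
Log2 fold change of PBS-injected P200 mice over P9 pups (horizontal axis) for the 8 tested members in CTR and ELS mice, with 95% intervals as lines and filled points for an adjusted p under 0.05. Dusp6 (1.32 and 1.28) and Dusp7 (0.83 and 0.76) are filled in both conditions, and Dusp8 (-2.65) and Dusp10 (1.21) in CTR mice.

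The age effect was compared between ELS and CTR mice by an interaction term, in which no member and 0.0299% of all tested genes passed. Dusp1 had the smallest p of the members, with medians of 4.82 and 2.77 CPM at P9 and P200 in CTR mice and of 3.85 and 7.96 CPM in ELS mice (ELS minus CTR 1.54, 95% interval 0.33 to 2.75, adjusted p = 0.362, edgeR). Without mouse P200_5.2_CTR_PBS it was 2.22. For Dusp2 the interaction was 2.97 (0.41 to 5.53, adjusted p = 0.417), and it was 2.08 without mouse P200_11.1_ELS_PBS and 3.84 without mouse P9_19.2_ELS. For Dusp8 it was 1.40 (-0.12 to 2.92, adjusted p = 0.527). For Dusp6 it was -0.04 (-0.42 to 0.34) and for Dusp7 -0.07 (-0.65 to 0.51). These contrasts share the PBS groups with the contrasts of LPS and of ELS after PBS.

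The isolation of pups and adults was not the same, since density centrifugation was used only for adults, so that age and isolation cannot be told apart. The adults compared had also been injected with PBS, the pups had not, and the paper lists them as separate cohorts. Age cannot be told apart from these differences either. The isolation-response genes summed to 84.3 to 583 CPM at P9 and to 837 to 1108 CPM in PBS-injected adults, and 7 of its 10 tested genes rose with age in CTR and 9 in ELS mice. The 7 border-associated macrophage markers summed to 475 to 921 CPM at P9 and to 2.84 to 10.6 CPM in PBS-injected adults. Nearly all of the P9 sum was Mrc1, with a mean of 711 CPM in both P9 groups. The means of Cd163, Lyve1, F13a1, Pf4, Cbr2 and Ms4a7 were at most 5.91 CPM in either P9 group. Of the 6 astrocyte markers 5 fell and 1 rose with age in both conditions, Gfap from a mean of 41.0 to 1.28 CPM in CTR mice, and of the 7 tested oligodendrocyte markers 4 fell and 1 rose in CTR and 2 fell and 1 rose in ELS mice. Their part in the changes of the phosphatases was not tested.

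Some kinases of the pathway rose and some fell with age, as did 17.44% and 26.62% of all tested genes in CTR mice. In ELS mice these shares were 17.15% and 25.05%. The counts below are descriptions beside these shares. In CTR mice 2 of 10 MAP kinases rose (Mapk14, p38 alpha, 0.51 ± 0.14, and Mapk12) and 4 fell. Among those that fell was Mapk10 (JNK3, -4.34 ± 0.92), which is known as the neuronal JNK. Map2k1 (0.41 ± 0.09) and Map2k6 rose and Map2k7 (-1.62 ± 0.34) and Map2k2 fell in CTR mice. Of the ERK-responsive transcripts, Egr1 (1.73 ± 0.34), Myc (0.65 ± 0.14) and Egr2 (1.73 ± 0.43) rose and Etv4 (from a mean of 2.08 to 0.0101 CPM) and Phlda1 (-1.97 ± 0.68) fell in CTR mice by edgeR. In ELS mice 2 MAP kinases rose and 2 fell, and Egr1 (2.34 ± 0.34) rose and Etv4 fell among the ERK-responsive transcripts. Of the 13 other dual-specificity phosphatases tested, 3 rose and 2 fell in CTR mice and 2 rose and 1 fell in ELS mice, with Dusp12 at 1.03 ± 0.15 and 1.01 ± 0.15.

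Genes whose pattern was most like that of each member were those with the highest Pearson correlation of log2 CPM over the 25 P200 mice among genes of at least 5 CPM on average. For the members that passed with LPS this likeness mostly reflects the difference between PBS and LPS mice. All values are given without a test. For Dusp1 they were Ppp1r3d, Rnd1 and Tpm4 (0.969 each), for Dusp2 Il1rn (0.955), P2ry6 (0.953) and Gm11110 (0.950), and for Dusp5 Rasd1 (0.961), Btg2 (0.945) and Slfn2 (0.943). For Dusp16 they were Pfkfb3 (0.974), Clic4 (0.968) and Mapk6 (0.965), and for Dusp8 Ppp1r15a (0.950), Gm26586 (0.931) and Utp4 (0.927). Of the members that fell, Dusp6 was most like Cd180 (0.919), Tlr4 (0.918), which encodes the LPS receptor, and Gm33858 (0.916), and Dusp7 most like Gpr160 (0.941), Gna15 (0.921) and Trmt12 (0.919). For Dusp10, which did not pass with LPS, the values were lower, at 0.791 for Rpl22l1, 0.781 for Pigf and 0.776 for Snrpe. Mouse P200_1.1_CTR_PBS, with Dusp10 at 28.3 CPM, was among the 25 mice, and its part in these values was not tested.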

How the data were processed

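The deposited values were raw counts per gene of 50 libraries. The authors trimmed the reads with cutadapt 2.10, aligned them with STAR to GRCm39 and counted unique exonic reads per gene with HTSeq 0.11.0, and these counts were not normalized. The annotation release and the strand setting of the counting are not given in the sources used here. Libraries were made from amplified cDNA of sorted cells, so that very low input limits detection, and the spread between mice is the error given. The title of each mouse gave its group.

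R 4.3.3 and edgeR 4.0.16 were used, with TMM scaling. The filter asked for 1 CPM or more in over 2 mice, which left 16696 of 53700 genes. All 50 mice entered 1 fit with 6 group means, from which 7 contrasts and 2 interactions were tested by quasi-likelihood and adjusted (Benjamini-Hochberg) over all tested genes. A gene passed with an adjusted p under 0.05, and rose or fell by its sign. RPKM used the exon length of GENCODE vM39, which held 52610 of the genes, and promoter windows came from the GRCm39 sequence.

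The 9 members were named in every comparison. Of each list, the genes that passed were named, at most 5 by smallest adjusted p, beside any gene that a small count refers to, and for each tested member the 3 genes of most similar pattern. Members and lists were chosen with earlier results of these data known. Alternatives were edgeR's likelihood-ratio test, DESeq2 1.42.0, DESeq2 size factors within edgeR, no filter or a stricter one, a fit of only the groups at hand, limma 3.58.1 with the number before the point of a mouse label as a random effect, that number as a block, a minimum log2 change of 1 for a call, and fits without single mice or without the 3 libraries with few detected genes. The labels do not define that number, and deviations of PBS and LPS mice that share it from their group means correlated by -0.04 to 0.08 over genes for the 10 numbers. That correlation covers adult mice only and not the comparisons of ELS with CTR or of age. Within an age, 0 numbers held both CTR and ELS mice, and the pups carried 5 numbers in P9-CTR and 4 in P9-ELS. The paper assigned litters rather than single pups to CTR or ELS. The main fit had no term for the number, so mice that share it were treated as independent. No 2 mice of a group had counts that agreed within sampling noise. Python 3.11.15 was used for descriptions.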

Additional observations from a re-analysis of the deposited data

Results flagged for a closer look

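Within the 4 groups of adult mice, each of the 8 tested members was searched for a mouse far from the others of its group on the log2 CPM scale (Dixon's ratio, 95% critical value). Of 32 such searches 3 found a mouse. Chance gives about 1 in 20 for normally distributed values only. Dusp5, at 0 counts in most mice of both PBS groups, does not meet this, so the rate is no measure for it. Dusp5 was at 1.07 CPM (27 counts) in mouse P200_5.1_CTR_PBS, against 0 to 0.0709 CPM in the other 6, and at 0.414 CPM (8 counts) in mouse P200_11.1_ELS_PBS, against 0 to 0.0402 CPM in the other 5. Both values set the size of the Dusp5 response to LPS, which was 7.98 and 9.32 on the log2 scale without them. Dusp7 was at 23.2 CPM in mouse P200_1.1_CTR_PBS, against 49.1 to 78.8 CPM in the other 6, and this library had the fewest detected genes of the adults. In the same library Dusp10 was at 28.3 CPM, Dusp1 at 0.305 CPM and Dusp8 at 0 CPM, and the fall of Dusp7 after LPS in CTR mice was -2.17 without the 3 libraries with few detected genes. No interaction of a member passed.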

How the results depend on the processing

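The members' log2 fold changes were recomputed 2070 times, 1408 of them without a single mouse. Of these values 2048 kept their side of the threshold, 8 no longer passed, 14 passed anew, and none that passed changed sign. Another 82 changes of sign concerned values that passed in neither fit and are counted among the 2048. The number of members that passed was 0 in the 3 ELS comparisons and in both interactions under every alternative run. It was 6 to 7 in both LPS comparisons, where a log2 fold change threshold of 1 removed Dusp6. With age it was 3 to 4 in CTR mice under the other settings (3 to 5 without single mice) and in ELS mice 1 with the fold change threshold, 4 without the 3 libraries with few detected genes, and 2 to 4 without single mice. In CTR mice Dusp10 no longer passed with age in limma with the label number as a random effect (0.84, adjusted p = 0.0979). Dusp4, tested only without the filter, passed with age in ELS mice, lower at P200 (adjusted p = 0.0033, edgeR), and Dusp8 passed there with DESeq2 (-1.25, adjusted p = 0.0393). The cause was not tested. With the label number as a replicate block in the 25 adults, 7 members passed in each LPS comparison and 0 in the interaction, and the block changed no call. The labels share a number without saying that it pairs mice. The mean log2 ratio of TMM to DESeq2 scaling per mouse differed by at most 0.03 between the groups of any of the 7 contrasts. Depth limits Dusp2, Dusp4 and Dusp5, which had counts near 0 in unstimulated mice.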
